A study of Mus musculus with 12 samples.

Results

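The genes of the respiratory chain and ATP synthase, encoded in the nucleus or in the mitochondrial genome, were followed in sorted mouse paw myeloid cells. Members were the protein-coding genes with names in the families Ndufa, Ndufb, Ndufc, Ndufs, Ndufv, Cox4i, Cox5 to Cox8, Uqcr and Atp5, with Sdha, Sdhb, Sdhc, Sdhd, Cyc1 and the mt- genes, leaving out names with -ps. Of 55401 gene IDs, 108 matched, 95 nuclear and 13 mitochondrial. A value of at least 5 normalized counts in at least 3 of 12 libraries was reached by 95 of them, 88 nuclear and 7 mitochondrial, beside 10243 genes in all. By name, the 88 nuclear members comprised 37 genes of complex I, 8 complex I assembly factors, 4 of complex II, 9 of complex III, 12 of complex IV, 17 of ATP synthase (complex V) and the supercomplex factor Cox7a2l. Ndufa4 is counted with complex I for its name, although its protein is now placed in complex IV. The 7 mitochondrial members were mt-Nd1, mt-Nd2, mt-Nd4, mt-Nd5 and mt-Nd6 of complex I, mt-Cytb of complex III and mt-Co1 of complex IV.

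The cells were CD45+, CD11b+ and Ly6G-, which selects leukocytes of the myeloid lineage other than neutrophils, and were sorted 4 h after saline or 1% carrageenan, an inflammatory seaweed polysaccharide, was injected into the hind paw. Controls were FABP5Flox mice, called Flox, whose Fabp5 alleles carry loxP sites. The other genotype was FABP5Flox/LysM-Cre, called cKO, in which Cre is driven by the lysozyme M gene in myeloid cells. Each of the 4 groups, namely Flox saline, Flox carrageenan, cKO saline and cKO carrageenan, had 3 libraries, and each library pooled cells of 3 or 4 mice, so all p-values measure the spread between pools. Pools are named by their mouse numbers. No group carried LysM-Cre without the floxed alleles, so effects of Cre and of Fabp5 loss cannot be told apart.

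Electrons from NADH enter the chain at complex I and those from succinate at complex II, pass through complexes III and IV to oxygen, and drive the proton gradient that ATP synthase uses. Complex II is built from nuclear genes alone and is also an enzyme of the tricarboxylic acid cycle, whereas the other complexes join subunits made from nuclear and from mitochondrial transcripts, which are made by separate transcription machineries. In macrophages, strong inflammatory activation is known for a turn towards glycolysis, for succinate build-up and for reactive oxygen made at complexes I and II.

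Reads assigned to genes ranged from 111925 in Flox saline 1-3 to 2987015 in cKO saline 5-8, and 5 of 6 cKO libraries were deeper than every Flox library, so depth and genotype cannot be told apart. All 10 genes fixed as markers of the sorted lineage (Ptprc, Itgam, Csf1r and others) had reads, from 1598 to 58160 over the 12 libraries, and lymphocyte markers reached at most 14.3 CPM (read counts scaled to equal library totals). A set of 16 resident macrophage markers summed to 21309 to 34589 CPM in the 6 saline libraries and to 5888 to 7564 in Flox carrageenan. In cKO carrageenan it summed to 16345, 14424 and 7689, the last in pool 9-12. A set of 12 inflammatory monocyte markers summed to 1305 to 2920.4 with saline, 8995 to 11779.8 in Flox carrageenan, and 3479, 7879 and 12614 in cKO carrageenan. Neutrophil markers (10 genes, Camp at 0 reads) reached 26.1 to 111 CPM with saline and 184 to 967 with carrageenan, and striated muscle markers, of a tissue rich in respiratory chain transcripts, 10.4 to 70.7 over all libraries. Keratinocyte markers (7 genes) summed to 581 to 917 CPM in Flox saline, 649 to 980.2 in Flox carrageenan, 1000.7 to 2329 in cKO saline and 769 to 1347 in cKO carrageenan, and fibroblast markers (10 genes) to 822 to 1717, 2159 to 2849.6, 1074 to 1545 and 1653 to 2693. The keratinocyte sums did not overlap between genotypes with saline, nor the fibroblast sums between treatments in either genotype, and their part in the results was not tested. Fn1 is in both the fibroblast and the monocyte set. It had 155 reads in Flox saline 1-3, where every other fibroblast marker had 0 to 4. Among the libraries, 2 stand apart and are named beside the results they touch: cKO carrageenan 9-12, with the highest monocyte sum and the lowest depth of its genotype (508407 reads), and Flox saline 1-3, the shallowest. Fabp5, the targeted gene, averaged 21.6 ± 15.2 (SD, n = 3) normalized counts in Flox saline against 7.31 ± 3.77 in cKO saline, and 60.5 ± 35.4 against 13.9 ± 8.89 with carrageenan, on 1 to 45 reads a library. Whether the reads at its 3′ end lie in the deleted part is not given in the sources used here.

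Among mitochondrial members, 6 missed the minimum, namely mt-Co2, mt-Co3, mt-Atp6, mt-Atp8, mt-Nd3 and mt-Nd4l, subunits of complexes IV, V and I, with 0 to 12 reads each over all libraries. By contrast, mt-Nd4 had 158421 reads, mt-Cytb 149928, mt-Nd1 121396, mt-Nd2 27397, mt-Co1 21448, mt-Nd5 18020 and mt-Nd6 130. In the GENCODE vM21 annotation of GRCm38, a stretch of chromosome 1 holds a row of unprocessed pseudogenes that copy a run of the mitochondrial genome. Of mt-Co2, 99.6% of the length was identical to the pseudogene Gm28661 (0 mismatches in 681 aligned bases), and mt-Co3, mt-Atp6, mt-Nd3 and mt-Nd4l had copies over 99% or more of their length with 0 or 1 mismatch. For mt-Atp8 an annotated copy covered 21.1%. Bases of chromosome 1 between the annotated pseudogenes were not searched, so whether the rest of mt-Atp8 has a copy there is not known here. The ends of 1 gene without reads and of 1 gene with reads are shown because libraries of this type start at the 3′ end of a transcript. They are the last 100 bases of mt-Co2 (chrM:7597-7696, + strand) with the matching 97 bases of Gm28661 (chr1:24614885-24614981, - strand), and the last 100 bases of mt-Co1 (chrM:6773-6872, + strand) with those of Gm29216 (chr1:24615706-24615805, - strand). Capitals mark bases outside the annotated copy.
mt-Co2: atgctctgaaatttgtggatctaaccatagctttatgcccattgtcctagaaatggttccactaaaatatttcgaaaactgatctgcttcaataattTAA
Gm28661: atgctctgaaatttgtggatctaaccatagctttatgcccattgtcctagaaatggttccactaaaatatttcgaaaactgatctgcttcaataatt
mt-Co1: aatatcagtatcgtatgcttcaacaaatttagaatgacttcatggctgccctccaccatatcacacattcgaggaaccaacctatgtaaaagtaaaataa
Gm29216: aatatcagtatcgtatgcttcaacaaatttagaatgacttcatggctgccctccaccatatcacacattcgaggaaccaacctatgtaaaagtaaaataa

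Each pair was identical over the lower-case bases, yet mt-Co2 had 0 reads and mt-Co1 had 21448. The copy of mt-Co1 covered only its last 31.3%, and that of mt-Nd4 the first 63.6%, leaving the last 502 bases of mt-Nd4 outside; mt-Nd1, mt-Nd2, mt-Nd5, mt-Nd6 and mt-Cytb had no annotated copy there. The pseudogenes themselves had 0 to 27 reads each. How reads with more than 1 placement were counted is not given in the sources used here, and its part in the low counts was not tested. Nothing can therefore be said here of the levels of these 6 transcripts. The counts of mt-Co1, whose last 100 bases are identical to Gm29216, are uncertain too. Among nuclear members the last 100 bases of Cox7c and Atp5g2 matched pseudogenes (Gm10012 and Gm10175), so the same holds for their counts. The other nuclear members filtered out were Ndufa4l2, Cox6a2, Cox7a1, Cox7b2, Cox8b, Cox8c and a second Atp5o entry, most of them isoforms known from muscle, testis or other tissues.

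The 88 nuclear members together took 0.682, 1.12 and 1.09% of reads in Flox saline, 1.00, 0.888 and 1.02% in Flox carrageenan, 0.816, 0.833 and 1.08% in cKO saline, and 0.676, 0.689 and 0.971% in cKO carrageenan. The 7 mitochondrial members took 1.98, 3.01 and 2.49%, then 3.01, 3.11 and 2.40%, then 2.44, 4.06 and 2.36%, and in cKO carrageenan 4.60, 4.36 and 3.18%. Nuclear shares overlapped between all groups compared, while the mitochondrial shares of cKO carrageenan lay above all 3 Flox carrageenan values. For each nuclear read there were 2.63 ± 0.31 mitochondrial reads in Flox saline (SD, n = 3), 2.95 ± 0.58 in Flox carrageenan, 3.35 ± 1.38 in cKO saline and 5.47 ± 1.91 in cKO carrageenan. On the log2 scale the nuclear to mitochondrial ratio was 0.84 lower in cKO than in Flox carrageenan and 0.72 lower in cKO carrageenan than in cKO saline, against 0.15 lower with carrageenan in Flox. The Flox value turned to 0.25 higher when taken from means of log2 values over members, and leaving out 1 library moved it from -0.31 to -0.02 and the cKO value from -1.05 to -0.45. No test was made of these sums, since the members were chosen with results known, and the ratios of the groups overlapped in every comparison. Within same-numbered cKO pools, taken as pairs, the log2 ratio went from -1.58 with saline to -2.77 with carrageenan, from -2.28 to -2.66 and from -1.13 to -1.71. In each of these 3 cKO pairs the mitochondrial share was higher and the nuclear share lower with carrageenan. The ratio was lower with carrageenan in each same-numbered Flox pair as well. It went from -1.54 to -1.58, from -1.43 to -1.81 and from -1.20 to -1.24. Both shares went up in some Flox pairs and down in others.

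**Figure D1:**
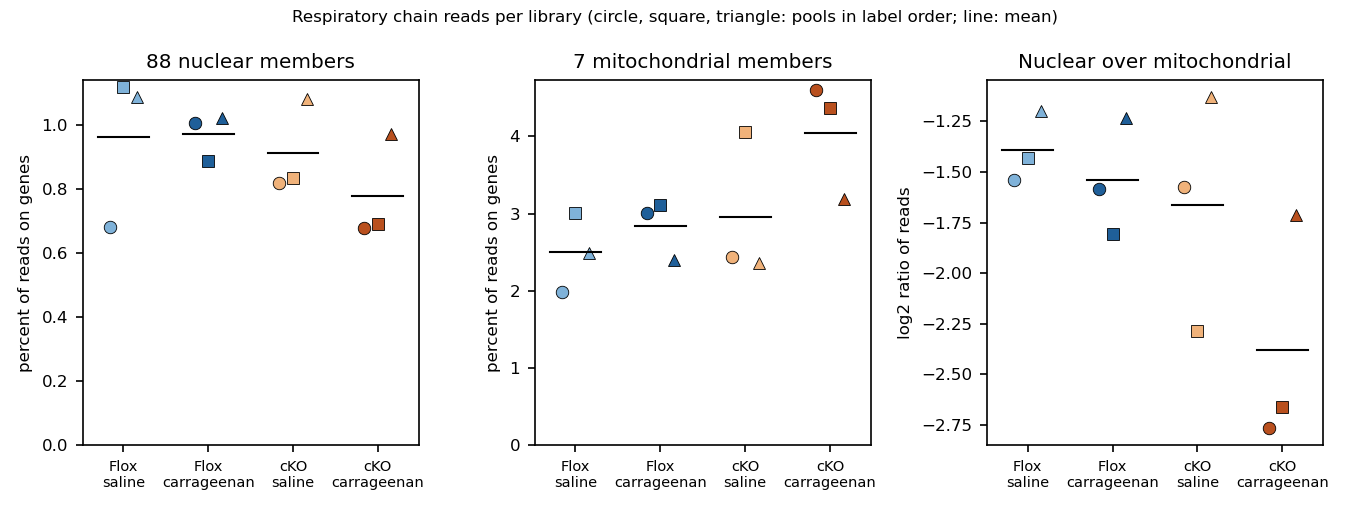
Percent of reads on genes taken by the 88 nuclear (left) and 7 mitochondrial members (middle), and the log2 ratio of the sums (right), in each of the 12 libraries (points) with the mean of each group (line). The first 2 pools of cKO carrageenan have the lowest ratios, -2.77 and -2.66, and pool 9-12 lies at -1.71, within the range of the other groups.

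The ratio split within groups as well. In cKO, the 3 deepest libraries had the lowest ratios, at -2.77, -2.66 and -2.28 on the log2 scale. The 3 shallower ones had -1.71, -1.58 and -1.13, with -1.71 in the shallowest, carrageenan 9-12. In Flox the order was the other way: the deepest libraries, carrageenan 8-10 and saline 8-10, had the highest ratios, -1.24 and -1.20. The shallower Flox libraries had -1.43 to -1.81. Cytosolic ribosomal protein genes took 2.16 to 2.45% of reads in the 5 libraries with the 5 lowest nuclear member shares (Flox saline 1-3, cKO saline 1-4 and 5-8, cKO carrageenan 1-4 and 5-8), against 4.22 to 5.79% in the other 7. An entry for 28S ribosomal RNA, not counted in any total, amounted to 0.170 to 0.512% in the cKO libraries of these 5 and to 1.06 and 2.13% in the other 2 cKO libraries. In Flox saline 1-3, also of these 5, it was 1.16%, within the 0.885 to 2.23% of the other Flox libraries. Ribosomal protein reads thus moved with the nuclear share over the 12 libraries. Lower ratios went with the deeper libraries in cKO and with the shallower ones in Flox. The part of depth and of ribosomal protein reads was not tested. In sorted pools, fewer cells of a type and less RNA per cell cannot be told apart.

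The mitochondrial transcripts did not all go together. mt-Nd4, a core subunit of the proton-pumping arm of complex I, had 4711, 4979 and 4662 normalized counts in Flox saline, 5714, 6553 and 5598 in Flox carrageenan, 5274, 10472 and 4344 in cKO saline, and 12067, 11695 and 7066 in cKO carrageenan. The 3 Flox carrageenan values were above all 3 Flox saline values and below all 3 cKO carrageenan values. mt-Cytb, the core of complex III, had 2719, 5310.4 and 4855 in Flox saline, 5832, 6706 and 5237 in Flox carrageenan, 4706, 10113 and 4742 in cKO saline, and 11427, 10545 and 6908 in cKO carrageenan. Its order of groups was that of mt-Nd4, with cKO carrageenan above Flox carrageenan in all 3 pools. mt-Nd1, another membrane subunit of complex I, ranged from 2957 to 5538 in Flox saline, 5074 to 5568 in Flox carrageenan, 4374 to 7476 in cKO saline and 6227 to 8413 in cKO carrageenan. mt-Nd5 ranged from 443 to 820.3, 531 to 856, 479 to 1147 and 783 to 1515 in the same groups, and mt-Nd2 from 744 to 1912, 1175 to 2005, 980.3 to 1411 and 1744 to 2066. These complex I subunits thus overlapped between some groups, and only mt-Nd1 joined mt-Nd4 and mt-Cytb in lying higher in every cKO than in every Flox carrageenan pool.

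mt-Co1, the catalytic subunit of complex IV, had counts with a pattern of their own. Since its last 100 bases are identical to a pseudogene, as shown above, mt-Co1 counts may not follow the level of the transcript. It had 1010.3, 2703 and 1208 normalized counts in Flox saline, 3246, 2563 and 818 in Flox carrageenan, 420.3, 975 and 773 in cKO saline, and 1253, 1412 and 2497 in cKO carrageenan. Its mean was lowest in cKO saline, and its highest cKO value was in cKO carrageenan 9-12, the pool of that group where mt-Nd4 and mt-Cytb were lowest. It took 6.89 to 12.7% of the mitochondrial member reads in Flox saline, 4.41 to 14.4% in Flox carrageenan, 2.57 to 4.72% in cKO saline and 3.43 to 9.77% in cKO carrageenan. mt-Nd6, the one member read from the other strand of the mitochondrial genome, had 0 to 34 reads a library, too few to place beyond counting error in the shallow Flox libraries.

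**Figure D2:**
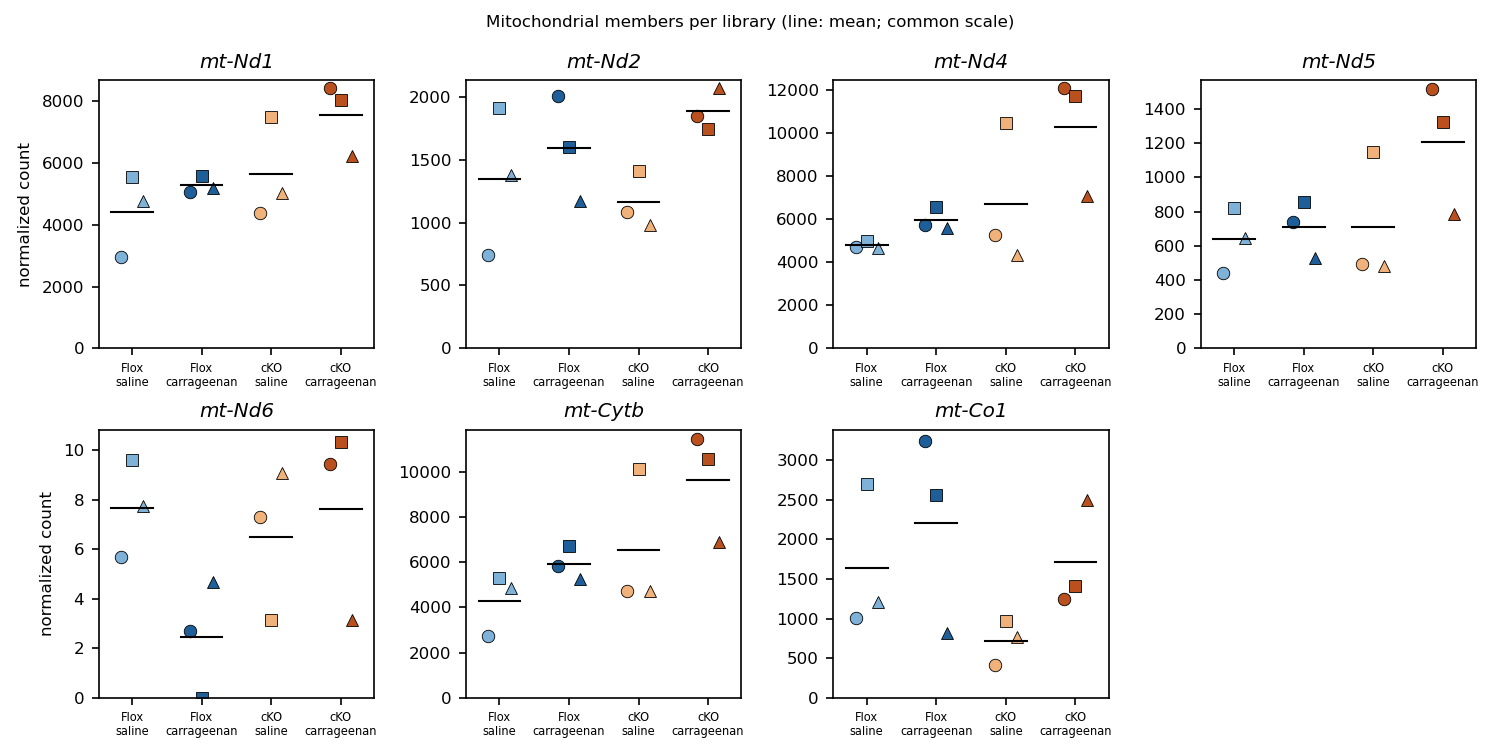
Normalized counts of the 7 mitochondrial members kept, on the scale common to the 12 libraries; points are libraries (circle, square and triangle: pools in label order) and lines group means. mt-Nd4, mt-Cytb and mt-Nd1 lie highest in the cKO carrageenan pools 1-4 and 5-8, whereas mt-Co1 of the same genotype and treatment is highest in pool 9-12.

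The first question of the design was what carrageenan changes within a genotype. No member passed an adjusted p of 0.05 (limma, Benjamini-Hochberg over all 10240 genes tested), in either genotype, where 7.18% of all genes passed in Flox and 2.64% in cKO. In Flox 7 members had an unadjusted p under 0.05, against 22.9% of all genes, and in cKO 3 members did, against 10.9%. In Flox the median log2 fold change, carrageenan over saline, was 0.23 for nuclear members, 0.31 for mitochondrial members and 0.10 for all genes, and 61 of 88 nuclear values were positive. Without Flox saline 1-3 the nuclear median turned to -0.13, with 35 of 88 positive and a median of -0.08 for all genes. In cKO the medians were -0.13 for nuclear members, 0.68 for mitochondrial members and -0.07 for all genes, with 63 of 88 nuclear values negative and 7 of 7 mitochondrial values positive. With libraries weighted by their quality (array weights), 27 nuclear members, 26 of them lower, and 6 mitochondrial members, all higher, passed in cKO, where 32.9% of all genes passed. The number of members passing stands near that share, which is no result about them, and the weights were estimated with convergence warnings.

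**Figure D3:**
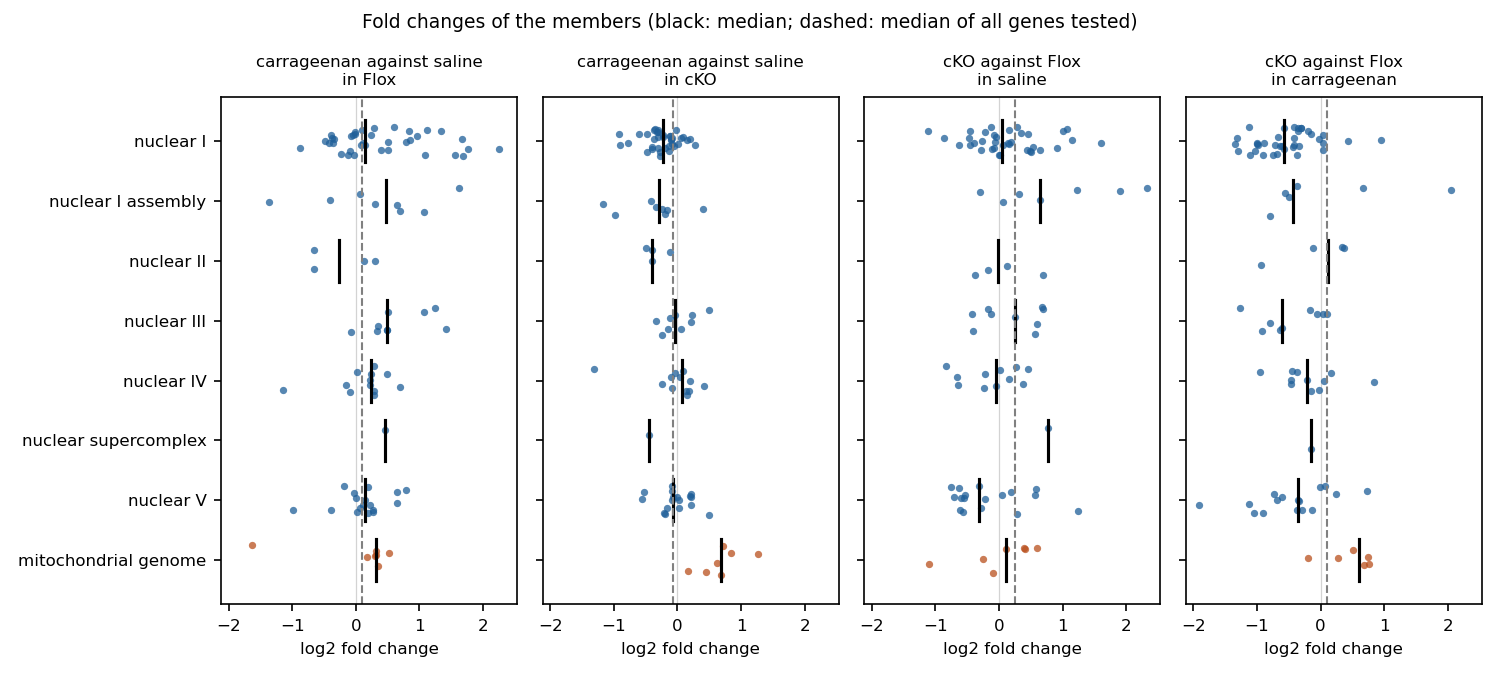
log2 fold changes of the members tested in the 4 comparisons, by complex (blue, nuclear; orange, mitochondrial); black bars are medians and the dashed line is the median of all genes tested. In cKO the nuclear and mitochondrial medians lie on opposite sides of 0 with carrageenan (-0.13 and 0.68), as they do for cKO against Flox in carrageenan (-0.41 and 0.60).

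Complex II was the one complex whose nuclear genes had a negative median with carrageenan in both genotypes, -0.26 in Flox and -0.40 in cKO. All 4 genes were negative in cKO, but in Flox 2 were negative and 2 positive, with Sdhd highest at 0.30. Its 4 genes took 0.0465, 0.0567 and 0.0491% of reads in Flox saline against 0.0371, 0.0318 and 0.0374% in Flox carrageenan, and 0.0440, 0.0477 and 0.0509% in cKO saline against 0.0323, 0.0314 and 0.0376% in cKO carrageenan. Every carrageenan library was below every saline library, at 0.698 of the saline mean in Flox and 0.710 in cKO. The resident macrophage marker sum was lower with carrageenan as well, as given above, and its part was not tested. Sdhc, a membrane anchor that binds haem, had 136, 125 and 108 normalized counts in Flox saline against 72.4, 66.1 and 94.8 in Flox carrageenan, and 126, 143 and 126 in cKO saline against 102, 94.3 and 101 in cKO carrageenan. It was the only member whose carrageenan and saline libraries did not overlap in both genotypes in the same direction, a pattern seen in 4.9% of all genes downward and 6.36% upward. The log2 fold change was -0.67 in Flox (SE 0.24, limma adjusted p = 0.103) and -0.40 in cKO (SE 0.24, limma adjusted p = 0.663).

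Averaged over genotypes, a contrast added after the data were seen, the Sdhc difference was -0.53 (SE 0.17) and its limma adjusted p of 0.0512 missed the threshold, which 11.6% of all genes passed. It passed without Flox carrageenan 8-10 (-0.61, limma adjusted p = 0.0363) or without Flox saline 8-10 (-0.58, limma adjusted p = 0.0466). It also passed with DESeq2, TMM scaling, a pseudocount of 0.5, a minimum mean of 20, library weights and scaling to genes that are not members. The same held on the deposited scale, where saline and carrageenan were scaled separately. It did not pass with edgeR, with a block for pool number or with thinned reads. Sdha, the flavoprotein that oxidizes succinate, had 96.5, 125 and 100.4 in Flox saline against 83.1, 52.2 and 70.7 in Flox carrageenan, without overlap, but 82.5 to 112 against 78.3 to 94.8 in cKO, with overlap. The iron-sulfur subunit Sdhb had 77.7 to 80.0 in Flox carrageenan and 33.9, 29.4 and 66.3 in cKO carrageenan, without overlap between the genotypes, and 45.4 to 95.9 in Flox saline. Sdhd, the second anchor, had 41.8 to 69.6 in cKO saline and 39.5 to 42.7 in cKO carrageenan, with overlap. After Sdhc, the smallest p in the averaged contrast was that of Uqcrfs1 (0.78, SE 0.26, limma adjusted p = 0.0641). There 6 members had an unadjusted p under 0.05, against 24.1% of all genes.

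**Figure D4:**
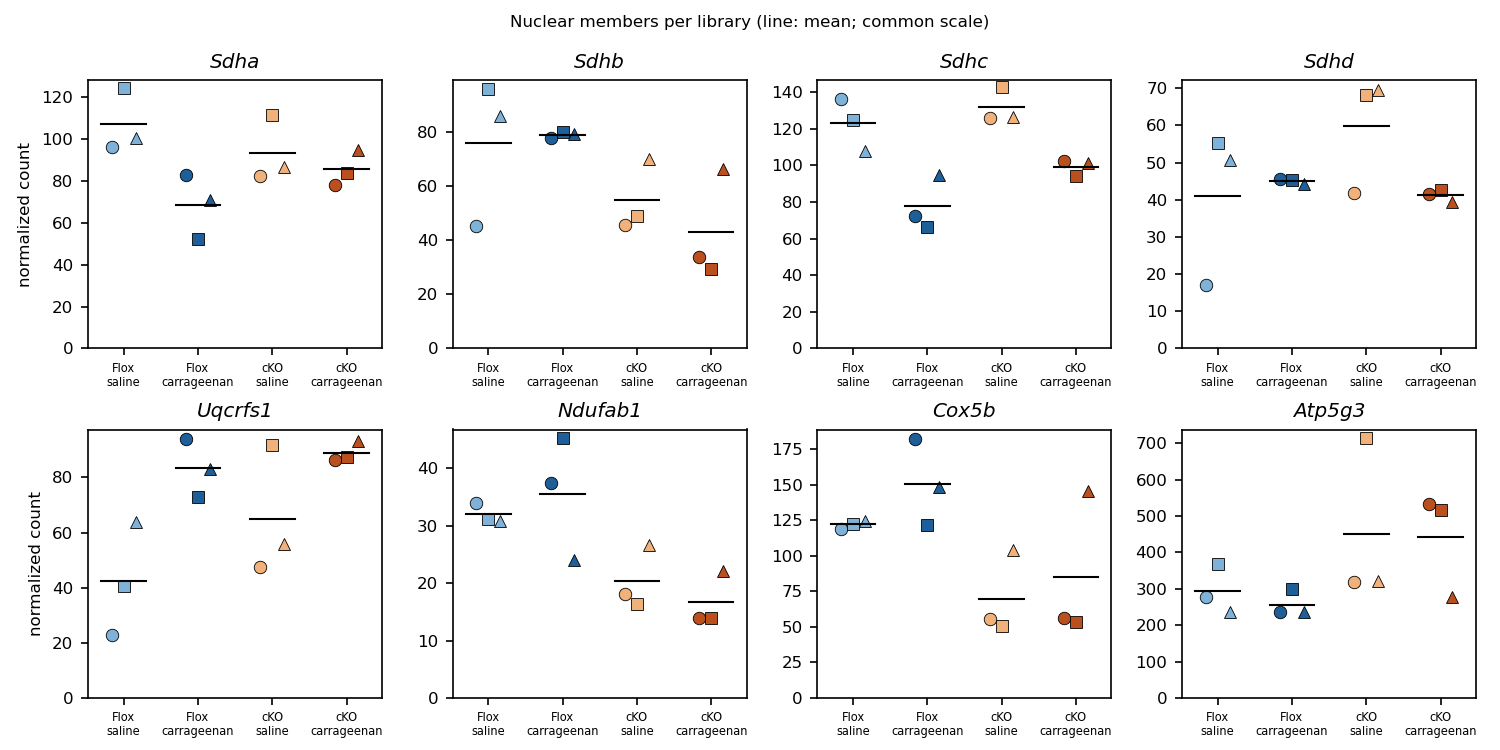
Normalized counts, common scale, of the 4 complex II genes and of 4 other nuclear members named in the text; points are libraries (circle, square and triangle: pools in label order) and lines group means. Sdhc is lower in every carrageenan than in every saline library of its genotype, and Cox5b and Sdhb in cKO carrageenan 9-12 (triangle) lie apart from the other 2 pools.

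In complex III, 8 of 9 nuclear genes had positive values with carrageenan in Flox and 4 of 9 in cKO. Uqcrfs1, the Rieske iron-sulfur protein, had 22.7, 40.8 and 64.0 in Flox saline against 93.8, 73.0 and 83.2 in Flox carrageenan, and 47.7, 91.7 and 55.7 in cKO saline against 86.4, 87.3 and 93.2 in cKO carrageenan. The groups did not overlap in Flox (log2 fold change 1.07, SE 0.36, limma adjusted p = 0.0907) and overlapped in cKO, where it was 0.50. Cyc1, which carries the haem that reduces cytochrome c, had 5.68, 52.8 and 48.5 in Flox saline against 88.4, 66.1 and 55.2 in Flox carrageenan, a log2 fold change of 1.41 that was 0.43 without Flox saline 1-3. Of complex I, 22 of 37 genes were positive in Flox and 6 of 37 in cKO. Among the 10 members with the smallest p in Flox were also Ndufs4 (2.25, SE 1.03), Ndufaf5 (1.62, SE 0.78), Ndufaf7 (-1.37, SE 0.63) and Uqcrq (1.24, SE 0.60), with limma adjusted p from 0.210 to 0.231. Without Flox saline 1-3 these stood at 0.48, 0.71, -1.05 and 0.34. Ndufa3, an accessory subunit, had 11.4, 57.6 and 82.7 in Flox saline against 123, 122 and 100.3 in Flox carrageenan (log2 fold change 1.56, SE 0.56, limma adjusted p = 0.112), and 40.7 to 76.9 against 44.8 to 104 in cKO. Without Flox saline 8-10, Uqcrfs1 (1.42, SE 0.36, limma adjusted p = 0.0242) and Ndufa3 (2.10, SE 0.56, limma adjusted p = 0.0297) passed in Flox, and without Flox saline 1-3 they stood at 0.69 and 0.72. The share of all genes passing without Flox saline 8-10 is not given here. In the main Flox fit it was 7.18%, so 2 calls are no result about the members.

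Carrageenan and saline libraries did not overlap in Flox for 9 nuclear and 1 mitochondrial member upward (13% of all genes) and 3 nuclear and 1 mitochondrial member downward (9.97%). In cKO this held for 0 nuclear and 2 mitochondrial members upward (12.6%) and 10 nuclear members downward (17%). Among the downward ones in cKO were Ndufs7, which holds the last iron-sulfur cluster of complex I, at 41.2 to 64.1 in saline against 21 to 37.9 in carrageenan, and the assembly factor Ndufaf7, at 12.7 to 20.9 against 6.32 to 10.5. The upward ones were mt-Nd2 (log2 fold change 0.72, SE 0.33) and mt-Co1 (1.27, SE 0.51), with limma adjusted p of 0.434 and 0.313. Shares near or below the background are no result about the members.

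**Figure D5:**
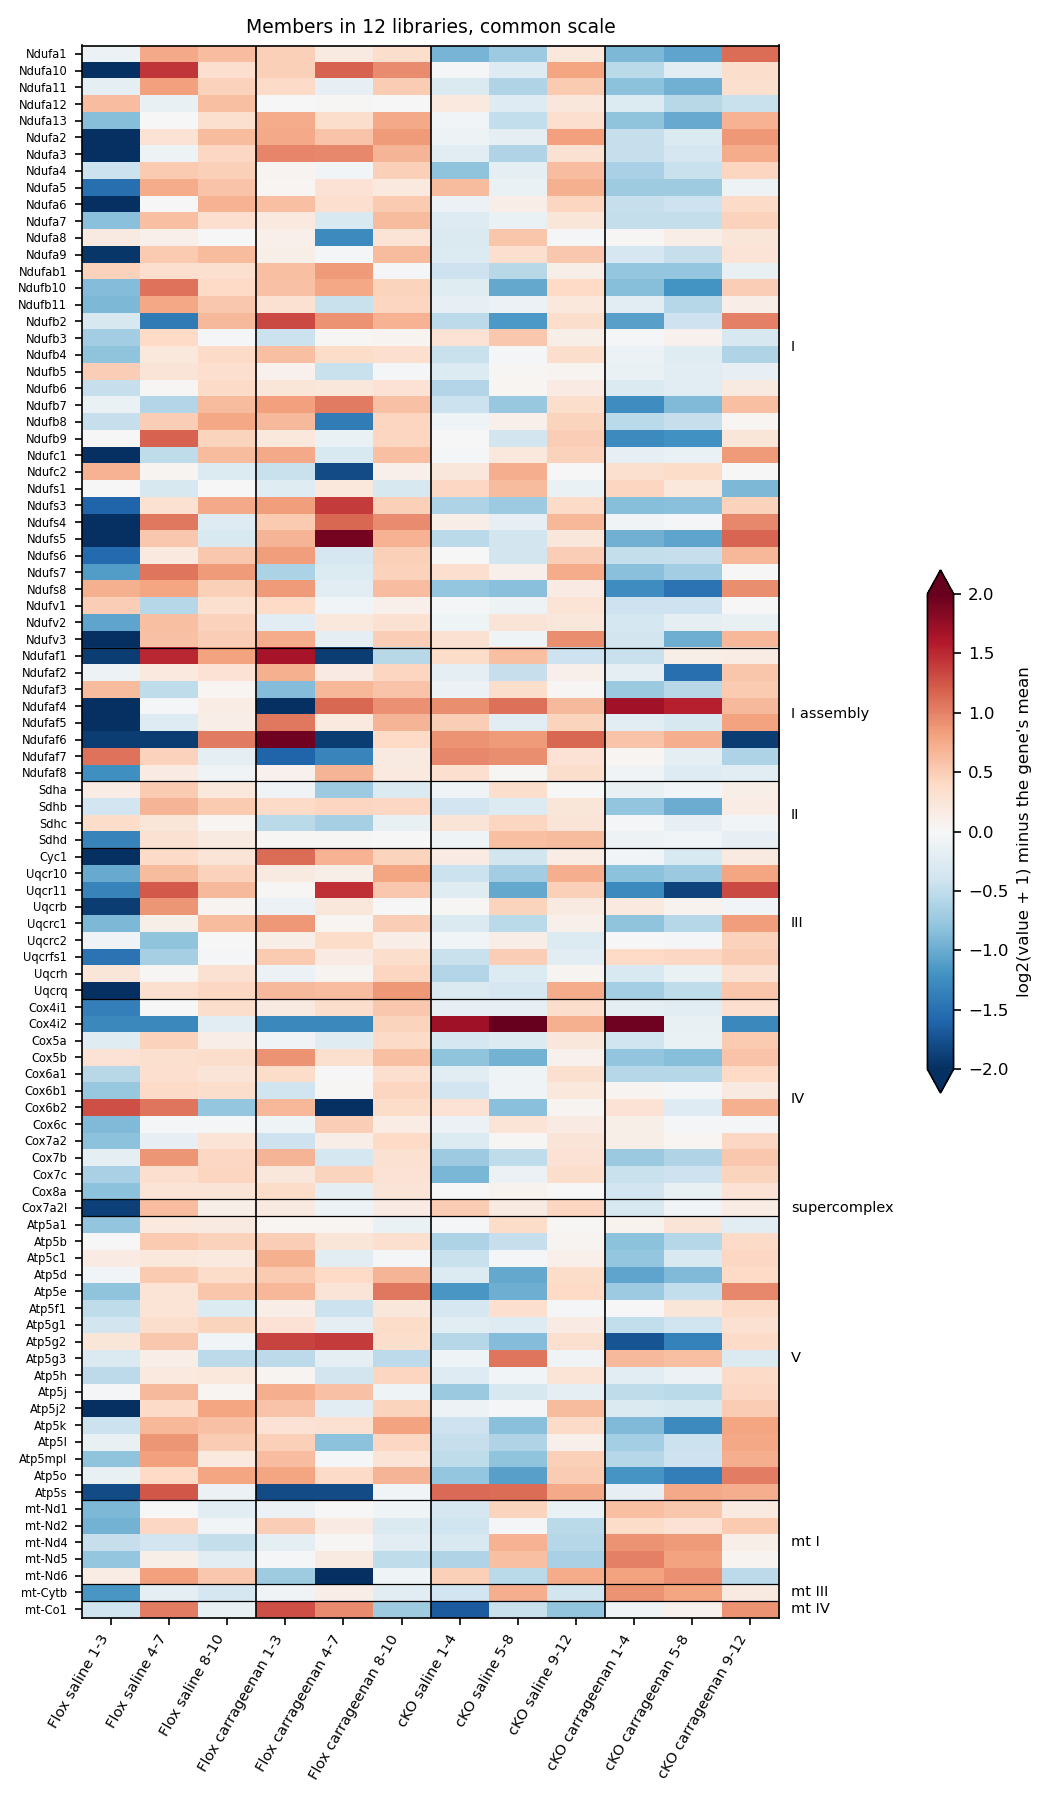
log2(value + 1) of the members kept, except 1 not reported here, in the 12 libraries, each row centred on its mean over libraries and grouped by complex, with red above and blue below the mean and colours ending at 2 either way. Most nuclear rows are blue in Flox saline 1-3 and in cKO carrageenan 1-4 and 5-8, whereas few are in cKO carrageenan 9-12.

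The next question was how cKO differed from Flox with carrageenan. No member passed (90 tested) and 0% of all 9151 genes did, as with edgeR, and with DESeq2 no member passed either. At an unadjusted p under 0.05 stood 18 members, 14 lower and 4 higher in cKO, beside 9.8% of all genes. The median log2 fold change, cKO over Flox, was -0.41 for 84 nuclear members, with 67 negative, 0.60 for 6 mitochondrial members, with 5 positive, and 0.09 for all genes. Complex I had 32 of 37 genes negative with a median of -0.57, complex III 7 of 9 with -0.61, complex IV 8 of 11 with -0.22 and complex V 13 of 16 with -0.36. Complex II had 2 of 4 negative, with a median of 0.11. Groups did not overlap for 13 nuclear members lower in cKO (6.19% of all genes) and 0 nuclear and 3 mitochondrial members higher (8.87%).

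Much of this turned on 1 pool. Without cKO carrageenan 9-12, 18 members passed (limma), 13 nuclear ones lower, the nuclear Atp5g3 higher and 4 mitochondrial ones higher, and 4.71% of 8908 genes passed. The lower ones were Ndufa2, Ndufa3, Ndufa13, Ndufb7 and Ndufb10 of complex I, Sdhb, Uqcrq, Cox5b, and Atp5b, Atp5d, Atp5e, Atp5k and Atp5o of ATP synthase, from -1.04 for Atp5b to -1.89 for Atp5o. The higher mitochondrial ones were mt-Nd1 (0.65), mt-Cytb (0.91), mt-Nd4 (1.01) and mt-Nd5 (1.04). The nuclear median was then -0.66 and the mitochondrial one 0.78. Weighting libraries gave 24 members, 20 nuclear lower, 1 nuclear higher and 3 mitochondrial higher, where 8.58% of all genes passed. The pool left out is the one with the lowest depth, macrophage marker sum and mitochondrial share and the highest ribosomal protein share of its group, and no reason to discard it is given in the labels.

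Cox5b, a zinc-binding subunit of complex IV, had 182, 122 and 148 normalized counts in Flox carrageenan and 56.0, 53.7 and 145 in cKO carrageenan, with 119, 122 and 125 against 55.3, 50.3 and 104 in saline. Pool 9-12 was the highest of the cKO pools with either treatment. Pool 9-12 was also highest of the cKO carrageenan pools for 2 ATP synthase members: Atp5o, which ties the outer stalk to the catalytic head, had 88.4, 66.1 and 81.6 in Flox carrageenan and 21.7, 18.8 and 104 in cKO carrageenan, and Atp5d, of the central rotor, 137, 125 and 152 against 44.8, 50.6 and 125. For Atp5d the genotypes did not overlap on the deposited scale (log2 fold change -1.05, SE 0.37, limma adjusted p = 0.497). Atp5o stood at -1.89 (SE 0.28, limma adjusted p = 0.0123) without pool 9-12 and Atp5d at -1.50 (SE 0.22, limma adjusted p = 0.0121). Among complex I genes, Ndufb7, an accessory subunit of the membrane arm, had 77.7, 90.4 and 66.1 in Flox carrageenan and 17.8, 23.0 and 66.3 in cKO carrageenan. Ndufs3, a core subunit of the peripheral arm, Ndufb4, Ndufa10, Ndufa3 and Ndufab1 were lower in cKO too, with log2 fold changes from -0.74 to -1.30 and a limma adjusted p of 0.497 each. The same adjusted p went with Sdhb (-0.94), Uqcrq (-0.92) and Cyc1 (-0.80), and with the higher mt-Nd4 (0.76).

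Ndufab1, the mitochondrial acyl carrier protein, which is also a complex I subunit, was lower in every cKO than in every Flox library with both treatments, the only member to be so. It had 34.1, 31.2 and 30.9 in Flox saline against 18.1, 16.4 and 26.6 in cKO saline, and 37.5, 45.2 and 24.1 in Flox carrageenan against 14, 13.9 and 22.1 in cKO carrageenan. This pattern was shown downward by 0.82% of all genes and upward by 1.66%. With 1 of 88 nuclear members showing it, the members stand near that background, which is no result about them. The nearest carrageenan values, 24.1 in Flox and 22.1 in cKO, rest on 31 and 14 reads, and the value of Flox saline 1-3 on 6. Averaged over treatments, a contrast added after the data were seen, the log2 difference of Ndufab1 was -0.85 (SE 0.29, limma adjusted p = 0.238). In that contrast 0.0293% of all genes passed and no member, and 17 members had an unadjusted p under 0.05 beside 14.8% of all genes. The smallest p was that of Cox5b (-0.92, SE 0.27, limma adjusted p = 0.195). Without cKO carrageenan 9-12, Cox5b, Atp5b, Atp5d and Atp5o passed, all lower in cKO, as did 2.43% of all genes.

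Atp5g3 went the other way. It encodes the same mature c-ring subunit of ATP synthase as Atp5g1 and Atp5g2, from a separate gene with its own import signal. It had 278, 369 and 236 normalized counts in Flox saline, 236, 299 and 236 in Flox carrageenan, 320.1, 714 and 321 in cKO saline, and 534, 517 and 276 in cKO carrageenan. Its paralog Atp5g1 had 68.1, 113 and 120.2, then 107, 76.5 and 113, then 74.8, 73.2 and 98.6, and then 62.3, 66.4 and 109. In cKO carrageenan the pools high in Atp5g3 were thus those low in Atp5g1. The log2 fold change of Atp5g3 in carrageenan, cKO over Flox, was 0.74, and 1.05 (SE 0.18, limma adjusted p = 0.0191) without pool 9-12.

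The same comparison of genotypes was made with saline. Of 92 members tested, 0 passed, as did 0% of 9371 genes, and 3 members had an unadjusted p under 0.05 (5.42% of all genes); edgeR and DESeq2 also called no member. The median log2 fold change was 0.02 for nuclear members, 0.10 for mitochondrial members and 0.25 for all genes. Without Flox saline 1-3 these were -0.32, -0.17 and 0.07. Groups did not overlap for 5 nuclear members lower in cKO (5.23%) and 2 higher (10.4%). The lower ones included Cox5b, Ndufab1 and Ndufs8, an iron-sulfur subunit of complex I, with 34.1, 36.0 and 28.7 in Flox saline against 11.5, 10.9 and 23.0 in cKO saline (log2 fold change -1.11, SE 0.46, limma adjusted p = 0.683). mt-Co1 stood at -1.09 (SE 0.46, limma adjusted p = 0.683), and Atp5b, the catalytic subunit of ATP synthase, at -0.64. Among the higher ones was the assembly factor Ndufaf4, at 0, 19.2 and 22.1 in Flox saline against 38.6, 43.5 and 31.5 in cKO saline.

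Whether the carrageenan effect differed between genotypes was tested directly as an interaction. No member passed and 0% of 10240 genes did with limma, edgeR or DESeq2, and 0 members had an unadjusted p under 0.05, beside 2.39% of all genes. The median difference of effects, cKO minus Flox, was -0.39 for nuclear members, 0.40 for mitochondrial members and -0.13 for all genes. Without Flox saline 1-3 the nuclear value was -0.06 and that of all genes 0.05. The member with the smallest p was the assembly factor Ndufaf8, at -1.12 (SE 0.60, limma adjusted p = 0.966), followed by Ndufa13 (-1.10), Ndufa3 (-1.41) and Uqcrq (-1.49) with the same adjusted p. The opposite signs of the nuclear medians in the genotypes are therefore not shown to differ beyond the spread between pools. Each group also enters a pair of these comparisons, so they are not independent of each other.

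Isoforms and paralogs known to differ by tissue or oxygen supply were measured at very different depths. Cox4i1, the common form of a regulatory subunit of complex IV, had 108, 278 and 356 normalized counts in Flox saline and 239.5 to 405 over the carrageenan libraries of both genotypes. Cox4i2, the form known from lung and from low oxygen, had 0, 0 and 1.10 in Flox saline, 0, 0 and 2.33 in Flox carrageenan, 6.96, 8.86 and 3.03 in cKO saline, and 8.39, 1.21 and 0 in cKO carrageenan. In reads this was at most 3 in a Flox library and up to 34 in a cKO library, so its averaged genotype difference of 1.65 (SE 0.61, limma adjusted p = 0.256) rests on few reads in shallow libraries. Cox6a1 averaged 253 ± 77.3, 286 ± 39.9, 245 ± 50.2 and 214 ± 89.3 (SD, n = 3 each) in Flox saline, Flox carrageenan, cKO saline and cKO carrageenan, and its muscle form Cox6a2 missed the minimum. Cox6b1 averaged 184 ± 71.2, 181 ± 51.0, 166 ± 34.6 and 182 ± 14 in the same groups, while Cox6b2, known from testis, ranged from 0 to 17 over all libraries. Cox7a2 averaged 98.5 ± 36.1, 117 ± 32.2, 113 ± 20.6 and 128 ± 18.3, and Cox8a 179 ± 66.4, 203 ± 38.3, 184 ± 6.08 and 174 ± 42.3. The ubiquitous isoforms thus overlapped between the groups throughout. Cox7a2l, which bridges complexes III and IV, had 122, 96.4 and 115 in cKO saline and 68.9, 81.9 and 94.8 in cKO carrageenan, without overlap, but 22.7, 132 and 92.7 against 96.5, 80.0 and 95.6 in Flox. Ndufc2 had 73.4, 104 and 62.9 in cKO saline and 78.3, 80.9 and 63.2 in cKO carrageenan, and Ndufa4 34.8, 54.2 and 95 against 39.2, 44.9 and 83.7.

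Genes that make, feed or regulate the chain were taken as 15 lists, of which 259 genes were tested. In Flox 5 passed with higher and 1 with lower values after carrageenan (limma), in cKO 2 with higher values, and in the genotype comparisons and the interaction 0. These counts are lower shares of the lists than the 7.18% and 2.64% of all genes that passed in Flox and in cKO. Sod2, the superoxide dismutase of the mitochondrial matrix, rose from 145 ± 50.9 to 717 ± 121 in Flox (SD, n = 3; log2 fold change 2.35, SE 0.30, limma adjusted p = 0.000789) and from 184 ± 60.6 to 889 ± 68.2 in cKO (2.31, SE 0.30, limma adjusted p = 0.00102). Hif1a, the oxygen-sensing transcription factor, rose from 117 ± 9.40 to 385 ± 56.6 in Flox (1.70, SE 0.27, limma adjusted p = 0.00225) and from 158 ± 62.4 to 602 ± 95.9 in cKO (1.98, SE 0.27, limma adjusted p = 0.00139). Both genes thus rose in both genotypes, and neither passed the test of the difference between genotypes. Prdx5, a peroxidase of mitochondria and other compartments, rose in Flox from 118 ± 68.9 to 555 ± 81.4, and averaged 159 ± 12.4 and 423 ± 138 in cKO. The translation factor Mtif3 and the ribosomal protein Mrpl44 also passed upward in Flox, each from a mean of 0.800 with reads in 1 of 3 saline libraries.

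Idh2, the NADP-dependent isocitrate dehydrogenase of mitochondria, was the gene of these lists that fell in Flox, from 93.5 ± 19.0 to 16.1 ± 10.8 (log2 fold change -2.65, SE 0.40, limma adjusted p = 0.00164). In cKO it averaged 109 ± 6.25 with saline and 44.8 ± 2.15 with carrageenan. Averaged over genotypes, 7 genes passed upward and 3 downward of 259, again a lower share than the 11.6% of all genes. The genes that fell there were Idh2, Cpt1a, which admits long-chain fatty acids to mitochondria (-0.85, SE 0.22, limma adjusted p = 0.0198), and Atpif1, the inhibitor of ATP synthase run in reverse (-0.83, SE 0.24, limma adjusted p = 0.0363). Atpif1 averaged 115 ± 26.2, 66.8 ± 18.9, 107 ± 30.9 and 59.5 ± 22.3 in Flox saline, Flox carrageenan, cKO saline and cKO carrageenan. Cox17, a copper carrier for complex IV, passed upward (0.93, SE 0.28, limma adjusted p = 0.0446), as did Atf4 (0.59), Mrpl52 (1.20), Mtif3, Hif1a, Sod2 and Prdx5. Of the 4 complex II assembly factors tested none passed, with medians of -0.30 in Flox and -0.67 in cKO.

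The 75 mitochondrial ribosomal protein genes tested, which translate the mitochondrial transcripts, had medians of 0.32 in Flox and -0.11 in cKO for carrageenan over saline, and, with 73 tested, of -0.23 for cKO over Flox in carrageenan, beside -0.41 for the nuclear members. Their share of reads was lowest at 0.167, 0.173 and 0.173% in cKO carrageenan 1-4 and 5-8 and cKO saline 5-8, the 3 deepest libraries. Mitochondrial DNA replication and transcription genes had medians of 0.53, -0.15 and 0.52 in the same comparisons, with 7 or 8 genes tested and none passing. Tricarboxylic acid cycle genes, 18 tested, had medians of -0.38, -0.14 and 0.37.

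In the authors' deposited table for carrageenan, cKO over Flox, 5 of 5526 genes with an adjusted p were under 0.05 and none of the 83 members. The lowest adjusted p of a member there was 0.240 for mt-Nd4, at a log2 fold change of 0.73. In the authors' deposited table the nuclear median was -0.36, with 71 of 88 values negative, the mitochondrial median 0.59 and the median of all genes 0.04. In the authors' deposited table for saline, 20 of 7232 genes were under 0.05, none of the 84 members among them, and the lowest adjusted p of a member was 0.413 for mt-Co1 at -0.95.

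The nuclear members were last compared by promoter, since they are known as shared targets of a few transcription factors. In RefSeq promoters (GRCm38.p6, 250 bases before to 50 after a start), 71 of the 88 nuclear members matched 76 promoters. Letters were searched on both strands: GCATGCGC for NRF1 stood in 12 member promoters (15.8%) against 2.71% of all 32851, AAGATGGCG for YY1 in 8 (10.5%) against 1.40%, CCGGAAGT for GABPA and other ETS factors in 5 (6.58%) against 3.89%, and TCAAGGTCA for ERR factors in 2 (2.63%) against 0.423%. At least 1 of the 4 stood in 34.2% of member promoters and 7.99% of all promoters, and none of the 4 words contains another. A match is a string of letters and no evidence of binding, and whether matches go with direction was not tested. For cKO over Flox in carrageenan, Ndufaf4, with the NRF1 letters, stood at a limma log2 fold change of 2.04. This value rests on 0, 13 and 49 reads in the Flox carrageenan pools, and Ndufaf4 stood at 0.60 in the authors' deposited table. Sdhd, with the ERR letters, stood at -0.09 in the authors' deposited table. The promoters of Sdhb, lower in cKO than in Flox carrageenan pools, and Atp5g3, higher in the same comparison without pool 9-12, are shown because these members differ in direction. They lie at chr4:140961021-140961320 (+ strand) and chr2:73911277-73911576 (- strand), and capitals mark the NRF1 letters in Sdhb, 54 bases before the start, and the reverse complement of the ERR letters in Atp5g3, 52 bases before it.
Sdhb promoter: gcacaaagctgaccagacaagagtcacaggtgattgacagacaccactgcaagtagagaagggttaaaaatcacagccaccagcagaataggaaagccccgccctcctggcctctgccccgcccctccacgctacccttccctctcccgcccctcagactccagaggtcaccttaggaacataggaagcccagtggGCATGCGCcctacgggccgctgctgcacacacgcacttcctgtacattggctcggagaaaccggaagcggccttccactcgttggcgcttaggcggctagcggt
Atp5g3 promoter: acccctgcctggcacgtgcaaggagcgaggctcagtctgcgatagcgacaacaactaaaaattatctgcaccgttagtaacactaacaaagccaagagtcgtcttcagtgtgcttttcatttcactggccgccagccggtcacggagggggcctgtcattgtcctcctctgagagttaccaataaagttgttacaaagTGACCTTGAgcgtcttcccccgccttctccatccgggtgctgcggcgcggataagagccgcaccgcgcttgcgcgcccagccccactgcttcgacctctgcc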

How the data were processed

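RNA of 12 pools of sorted paw myeloid cells was sequenced as 3′ mRNA libraries with molecular identifiers (Lexogen LUTHOR), per the labels' protocols. Per the submitters' processing notes, cutadapt, STAR and GRCm38 were used; which tool counted reads, on which annotation and in which versions is not given in the sources used here. Deposited tables hold a signal in normalized counts, which the authors made by dividing the reads of a library by its size factor, separately for the saline and the carrageenan table. Per the file headers, other deposited tables give the authors' log2 fold change with its standard error, a p-value and an adjusted p-value. From this deposited signal the whole reads could be recovered (100% of low values whole, tolerance 0.001). IDs were matched to GENCODE vM21 (55141 of 55401), and 121 entries that are not genes, 0.170 to 2.23% of reads and nearly all a 28S entry, were left out.

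Carrageenan and saline, and the interaction, were compared over 12 libraries put on 1 scale by medians of ratios, the scale of all printed levels; genotypes were compared within each deposited table. limma was run with its trend option on log2(value + 1), for genes of at least 5 in at least 3 libraries. Benjamini-Hochberg adjustment was over all genes tested, with a threshold of 0.05. Fold changes are on the log2(value + 1) scale. The added 1 shrinks those of low genes, but a shallow library without reads for a gene can enlarge them. In Flox saline 1-3, 1 read stood for 5.68 normalized counts. The limma fit was tested on simulated data. edgeR and DESeq2 on recovered reads, other scalings, filters and pseudocounts, thinned reads, library weights (estimated with convergence warnings) and leaving out libraries were alternatives. Versions were DESeq2 1.42.0, edgeR 4.0.16 and limma 3.58.1 under R 4.3.3. Pool numbers are shared by saline and carrageenan within a genotype. Same-numbered pools deviated together in cKO (correlations 0.200, 0.334 and 0.432) and not throughout in Flox (0.00905, -0.0182 and 0.109). For this reason pairs of cKO pools were described for the shares and the ratio, with the Flox pairs beside them. The main fits used group means without pairing, and a block for pool number in both genotypes was an alternative.

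Members, lists and tests were chosen with earlier results of these data known. Named were all mitochondrial members kept, all members past the threshold or, where under 5 passed, the 10 with the smallest p, fixed isoforms, and up to 3 genes a list; Atp5o, Atp5g1, Ndufb7 without pool 9-12 and members whose groups did not overlap were singled out after their values were seen. Contrasts averaged over a factor were added after seeing the data. Values of 1 member are not reported here. Copies were sought in the last 100 bases of each member (at least 98% identity over 90 bases).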

Additional observations from a re-analysis of the deposited data

How the results depend on the processing

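Over the alternatives run, no member passed the threshold with edgeR in any of the 7 comparisons, and with DESeq2 only Sdhc did, in the treatment contrast averaged over genotypes (1 member). The replicate block, pool number within genotype, left 0 members past the threshold in every comparison it could be fitted to. Library weights gave 33 members for carrageenan in cKO, 24 for cKO against Flox in carrageenan, 1 in saline (mt-Co1), 5 for the averaged treatment contrast and 34 for the averaged genotype contrast, where 32.9, 8.58, 0.566, 23.2 and 14.2% of all genes passed, and turned the mitochondrial median in Flox to -0.15; the cause was not tested. Scaling to genes that are not members gave 1 member in Flox, where 7.18% of all genes passed in the main fit. In the averaged treatment contrast, 1 member passed with a pseudocount of 0.5, TMM, scaling to other genes, the deposited scale or thinned reads (Ndufaf7), and 2 with a minimum mean of 20. In the main fit of that contrast 11.6% of all genes passed, so calls of 1 or 2 members in it are no result about the members. The log2 nuclear to mitochondrial difference in Flox, -0.15 from sums, was 0.25 from the mean of log2 values, in which each member counts alike. Leaving out libraries 1 at a time gave 0 to 2 members for carrageenan in Flox, 0 in cKO, 0 for genotypes in saline, 0 to 18 in carrageenan, 0 for the interaction, 0 to 2 and 0 to 4 for the averaged treatment and genotype contrasts. Without cKO carrageenan 9-12, 4.71% of all genes passed for genotypes in carrageenan and 2.43% in the averaged genotype contrast. The Flox calls were Uqcrfs1 and Ndufa3 without Flox saline 8-10, and those in carrageenan came without cKO carrageenan 9-12; the averaged treatment contrast called Sdhc, Uqcrfs1, mt-Co1 or Ndufs7 without Flox carrageenan 8-10, Flox saline 8-10, Flox saline 1-3 or cKO saline 5-8. Nuclear medians then ranged from -0.13 to 0.38 (Flox), -0.40 to 0.03 (cKO), -0.32 to 0.16 (saline), -0.66 to -0.28 (carrageenan) and -0.59 to -0.06 (interaction), and mitochondrial medians from 0.04 to 0.49, 0.45 to 0.99, -0.17 to 0.32, 0.48 to 0.78 and 0.29 to 0.78. Of the values of named members, 2142 kept direction and side of the threshold, 60 passed it and 37 changed sign. Flox libraries of 111925 to 994161 reads limit what low members can show.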
